A study of Mus musculus with 20 samples.

Results

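The effect of an Ogt knockout on liver transcripts was set against itself at 2 ages, 4 and 8 weeks. All 20 arrays of the series took part, placed by their titles in 4 groups of 5 mice: wild type (WT, labelled OGTL WT) at 4 weeks, knockout (KO, labelled OGTL KO) at 4 weeks, WT at 8 weeks and KO at 8 weeks. RNA came from powdered frozen liver and was hybridised to Clariom S Mouse arrays. The labels name neither strain, sex, diet nor the driver of the deletion. The KO minus WT difference of 8-week livers less that of 4-week livers, called the interaction, was tested for each of 19505 genes. A positive interaction means that KO lay higher against WT at 8 weeks than at 4 weeks, and a negative one that it lay lower. Levels are log2 signals given as mean ± SD (n = 5 mice per group), and 1 log2 unit is a 2-fold difference. A gene was called at a limma adjusted p below 0.05 (Benjamini-Hochberg over all genes), and a group mean at or below the 95th percentile of 1410 olfactory and vomeronasal receptor genes (5.02 to 5.20 by group) is called not above background.

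Ogt encodes O-GlcNAc transferase, the enzyme that places a single sugar, N-acetylglucosamine, on proteins of the nucleus and cytoplasm and so ties their activity to nutrient supply. The ages compared lie on either side of puberty, when the mouse liver takes on its adult and sex-specific programme under pituitary growth hormone. Male-biased and female-biased liver genes are those on which this programme acts most. Interferon and oxidative stress responses are defences of liver cells. A ductular reaction (bile duct cells and progenitors that multiply), macrophage entry and matrix deposition by stellate cells are known features of a damaged liver.

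The targeted gene was examined first. Ogt read 9.37, 9.87, 9.83, 9.65 and 9.14 in the 5 WT livers at 4 weeks and 7.37, 8.30, 8.13, 8.84 and 8.07 in the KO livers. At 8 weeks it read 9.84, 10.12, 9.92, 10.33 and 10.19 in WT and 9.86, 10.01, 9.65, 10 and 9.55 in the livers labelled KO. The groups were apart at 4 weeks and overlapped at 8 weeks. The difference was -1.43 at 4 weeks (adjusted p = 8.82e-05) and -0.27 at 8 weeks (adjusted p = 0.529). Ogt itself therefore had a called interaction of 1.16 (SE 0.29, adjusted p = 0.0307), a call lost if any of 7 arrays was dropped (adjusted p up to 0.0605). These were WT arrays 2, 3 and 4 at 4 weeks, WT arrays 1 and 3 at 8 weeks, and KO arrays 1 and 2 at 8 weeks. Which part of the transcript its probes cover was not given, so whether they lie in the deleted part was not tested. Since Ogt was not called different at 8 weeks, KO at that age means the arrays labelled KO throughout.

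Array medians lay between 5.42 and 5.58. Hepatocyte markers such as Alb, at 19.68 to 19.83 in the group means, stood far above background everywhere. Eif2s3y, a Y-linked gene, was present in all groups (lowest array 11.08, highest 12.09). Skeletal muscle transcripts reached a mean of 13.62 on WT array 4, 12.01 on KO array 4 and 11.49 on KO array 5 at 4 weeks, against 4.66 to 5.85 on the other arrays. Counts without these 3 arrays are given beside several of the main ones. KO array 3 at 8 weeks held the lowest value of its group for 114 of the 205 genes that were higher only at 8 weeks. WT array 1 at 4 weeks had a mean of 12.38 for interferon-gamma inducible GTPases, where the other WT arrays of that age lay between 8.36 and 8.91.

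At 4 weeks 917 genes were higher and 1068 lower in KO, 10.2% of those tested. At 8 weeks 963 were higher and 321 lower, or 6.58%. Both ages called 311 genes, which is 15.7% of the calls at 4 weeks and 24.2% of those at 8 weeks. The interaction was called for 595 genes (3.05%), 399 positive and 196 negative, and 3096 genes had an unadjusted interaction p under 0.05. Its size was at least 1 log2 unit for 309 of the positive and 119 of the negative genes, and 18 of the 595 were not above background in any group. Adamts10 was just inside the threshold (interaction 0.67, adjusted p = 0.0499) and Znfx1 just outside it (-0.91, adjusted p = 0.0511). Without the 3 arrays with muscle transcripts 370 positive and 147 negative genes were called, 400 of them among the 595. At 4 weeks 695 genes were then higher and 975 lower in KO. Leaving out single arrays gave 247 to 528 positive and 138 to 227 negative calls. The positive count fell to 251 without KO array 2 at 4 weeks and to 247 without KO array 1 at 8 weeks. With array medians set equal, 61% of called interactions were positive against 67.1%, 33.2% of the calls at 4 weeks were higher against 46.2%, and 48.3% of those at 8 weeks against 75%. That scaling moved the median gene at 8 weeks from -0.04 to -0.15.

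**Figure D1:**
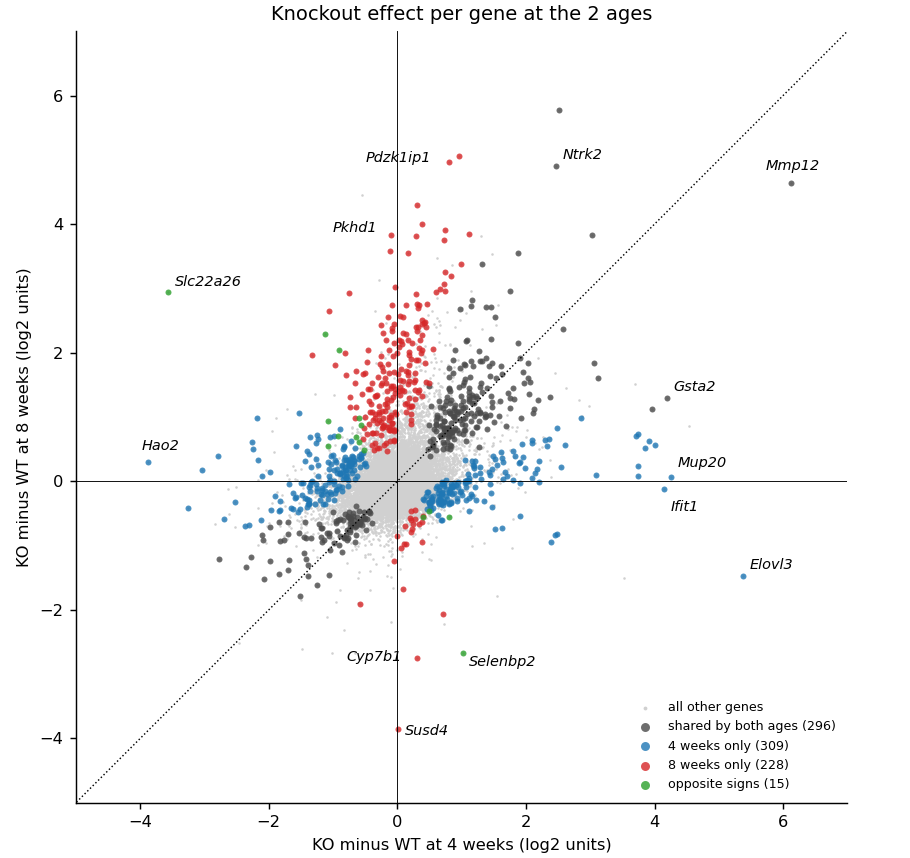
KO minus WT at 4 weeks (x axis) against KO minus WT at 8 weeks (y axis), in log2 units, with 1 point per gene for 19505 genes and the line of equal effects dotted. The 309 genes of 4 weeks only (blue) lie along the x axis, the 228 of 8 weeks only (red) along the y axis and mostly above it, the 296 shared genes (dark grey) near the diagonal, and the 15 of opposite sign (green) in the other quadrants.

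The genes were then sorted. A gene was "shared" when called at both ages with the same sign, and "opposite" when the signs differed. It was "4 weeks only" or "8 weeks only" when called at that age alone and the interaction was called too. By this rule 200 genes were higher (1.03% of genes) and 96 lower (0.492%) at both ages, together 1.52%. Only at 4 weeks 157 genes were higher (0.805%) and 152 lower (0.779%), and only at 8 weeks 205 were higher (1.05%) and 23 lower (0.118%). Of the genes with opposite signs, 11 went from lower to higher (0.0564%) and 4 from higher to lower (0.0205%). A further 28 genes had a called interaction but no call at either age, 19 positive (0.0974%) and 9 negative (0.0461%). The other 2110 genes, 79.7% of those called at 1 age, had no called interaction. For them a call at 1 age alone does not show a difference between the ages. Nor does the missing interaction call show that the effects were equal. At 4 weeks these unresolved genes were 556 higher (2.85%) and 809 lower (4.15%), and at 8 weeks 547 higher (2.8%) and 198 lower (1.02%). The remaining 16519 genes had no call. KO and WT did not overlap on any array for 8.55% of genes at 4 weeks and 6.1% at 8 weeks. In whole liver, a change in the number of cells of a type and a change in RNA per cell cannot be told apart.

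The class sizes depended on single arrays. Genes lower only at 4 weeks numbered 100 without WT array 2 at 4 weeks, 93 without KO array 2 at 4 weeks and 98 without KO array 1 at 8 weeks. Genes higher only at 8 weeks numbered 309 without KO array 3 at 8 weeks, the array that lay low for most of them. They numbered 124 without KO array 1, 128 without KO array 2 and 128 without WT array 3 at 8 weeks, and 136 without KO array 2 at 4 weeks. Genes lower only at 8 weeks numbered 14 without WT array 3 and 35 without KO array 3 at 8 weeks. Shared lower genes numbered 58 without WT array 3, 54 without KO array 2 and 58 without KO array 5 at 8 weeks, where the lower calls of that age fell to 203, 207 and 199. With array medians set equal there were 220 shared lower genes and 42 lower only at 8 weeks. Without the 3 muscle arrays 159 genes were shared higher, 108 shared lower and 177 higher only at 8 weeks.

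**Figure D2:**
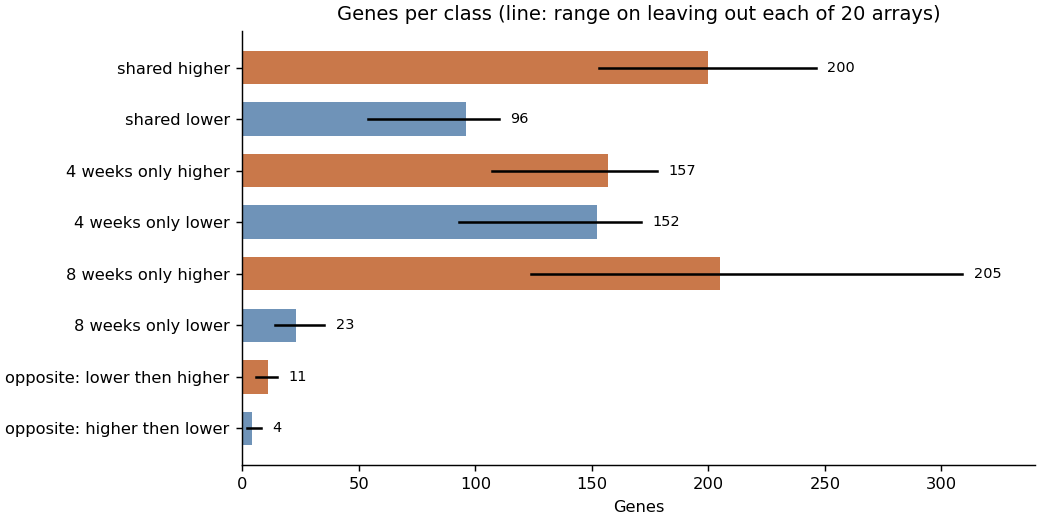
Number of genes in each class (x axis), with bars in orange for genes higher at the last age named and in blue for lower. The black line is the range of the count when each of the 20 arrays was left out in turn, and it runs from 124 to 309 for genes higher only at 8 weeks.

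Most type I interferon-stimulated genes were higher in KO at 4 weeks, and all but 1 were not called at 8 weeks. Ifit1, an antiviral effector that binds foreign RNA, read 7.38, 7.21, 6.58, 6.74 and 6.61 in WT against 11.53, 11.25, 11.47, 9.61 and 11.40 in KO at 4 weeks. In 8-week livers it read 8.11, 6.17, 6.05, 6.44 and 6.81 in WT and 5.53, 6.61, 6.62, 6.90 and 7.34 in KO. All 5 KO livers at 4 weeks stood above the other 15, and at 8 weeks the groups overlapped. Its interaction was -4.26 (SE 0.56, adjusted p = 0.000236). Rsad2, which encodes the antiviral enzyme viperin, differed by 3.74 at 4 weeks and 0.23 at 8 weeks (interaction -3.51, adjusted p = 0.000822). Its neighbour Cmpk2, a mitochondrial nucleotide kinase gene, differed by 3.74 and 0.09 (interaction -3.65, adjusted p = 9.23e-05). Irf7, the transcription factor that amplifies interferon production, was 8.18 ± 0.75 (WT) and 12.18 ± 0.91 (KO) at 4 weeks, and 8.50 ± 0.68 and 9.07 ± 0.45 at 8 weeks (interaction -3.44, adjusted p = 0.00227). Cxcl10, a chemokine induced by interferon, differed by 3.85 and 0.52 (interaction -3.33, adjusted p = 0.00193). These 5 calls held on leaving out any of the 20 arrays.

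Of the 32 measured interferon-stimulated genes, 28 were higher at 4 weeks and 1, Ifi27l2a, at 8 weeks, and none was lower (background 4.7% higher at 4 weeks and 4.94% at 8 weeks). The count at 8 weeks was 0 to 2 when single arrays were left out. The interaction was called negative for 14 of them and positive for none (background 1% and 2.05%). The negative calls were 16 without the 3 muscle arrays, and 11 to 20 when single arrays were left out. The median difference of the list was 1.75 at 4 weeks and 0.17 at 8 weeks, and the median interaction -1.26, where all genes had 0.00, -0.04 and -0.02. The 14 genes were Ifit1, Ifit3, Ifit3b, Rsad2, Irf7, Stat2, Mx1, Usp18, Ddx58, Ifih1, Dhx58, Cmpk2, Rtp4 and Herc6. They include the receptors of foreign RNA (Ddx58, Ifih1, Dhx58), the signalling factor Stat2 and the inhibitor Usp18. Features of near-identical paralogs such as Ifit3 and Ifit3b cannot be assigned to 1 gene with certainty. The mean of the list per array was 7.79, 7.17, 7.10, 7.09 and 7.02 in WT against 9.0, 9.28, 9.47, 8.44 and 9.79 in KO at 4 weeks. At 8 weeks it was 6.99, 6.80, 6.54, 6.66 and 6.50 in WT and 6.84, 7.10, 7.06, 7.03 and 7.03 in KO.

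The promoters of these genes are shown because many carry the sequence through which interferon signalling acts, the interferon-stimulated response element. It was searched as GAAANNGAAA on both strands, in windows of 250 bases before to 50 bases after the gene start. The windows are RefSeq promoters of GRCm38.p6, matched by symbol for 15691 of the 19505 genes tested, and capitals mark the match.
Ifit1 (chr19:34640639-34640938, + strand): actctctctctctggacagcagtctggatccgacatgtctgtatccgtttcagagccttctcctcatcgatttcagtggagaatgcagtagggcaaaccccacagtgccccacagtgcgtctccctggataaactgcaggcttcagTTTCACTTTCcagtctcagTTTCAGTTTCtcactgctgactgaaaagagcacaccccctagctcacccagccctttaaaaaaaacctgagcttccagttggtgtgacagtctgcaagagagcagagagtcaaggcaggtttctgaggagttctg
Ifit3 (chr19:34583279-34583578, + strand): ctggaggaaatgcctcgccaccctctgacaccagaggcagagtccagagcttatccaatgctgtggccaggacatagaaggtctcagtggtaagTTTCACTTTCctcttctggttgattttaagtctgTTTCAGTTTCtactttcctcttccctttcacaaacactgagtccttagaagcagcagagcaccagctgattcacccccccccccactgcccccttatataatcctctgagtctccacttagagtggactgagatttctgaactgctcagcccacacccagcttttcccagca
Rsad2 (chr12:26456403-26456702, - strand): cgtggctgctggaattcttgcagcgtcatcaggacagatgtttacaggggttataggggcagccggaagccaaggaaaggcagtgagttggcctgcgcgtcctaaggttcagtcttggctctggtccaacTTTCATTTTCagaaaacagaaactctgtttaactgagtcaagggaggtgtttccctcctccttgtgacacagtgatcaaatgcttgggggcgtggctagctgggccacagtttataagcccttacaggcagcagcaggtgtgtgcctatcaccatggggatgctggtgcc
Ifit1 and Ifit3 each had 2 matches and Rsad2 had 1, all before the gene start. The letters were found for 3.94% of the genes with a window. Among genes higher only at 4 weeks they were found for 22 of 123 (17.9%), and among those lower only at 4 weeks for 1 of 121 (0.826%). Genes higher only at 8 weeks had them at 4.96% and shared higher genes at 5.99%. The highest share of any class, 3 of 9 genes with a window (33.3%), belonged to genes that went from lower at 4 weeks to higher at 8 weeks. Of the interferon genes of 4 weeks only, 7 of 10 with a window had a match, while the windows of Irf7, Cmpk2 and Herc6 had none. A match describes the letters in the window and was not tested as a binding site.

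Interferon-gamma inducible GTPases, which attack the vacuoles of intracellular pathogens, had medians of 1.67 at 4 weeks and 0.62 at 8 weeks. Of 12 measured, 6 were higher at 4 weeks (background 4.7%) and none at 8 weeks (4.94%), and the interaction was called for none. Without the 3 muscle arrays 4 were higher at 4 weeks. Gbp3 read 10.15, 7.21, 7.33, 7.51 and 7.13 in WT against 9.84, 10.39, 10.39, 9.26 and 11.35 in KO at 4 weeks. WT array 1 alone lay within the KO range. Without that array 12 of the 12 were higher at 4 weeks and 2 at 8 weeks, and 6 had a called negative interaction. In the full set Gbp3 had an interaction of -2.04 (adjusted p = 0.0778), Gbp4 of -1.58 (0.298), Gvin1 of -1.05 (0.344) and Gbp9 of -0.85 (0.37).

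Most antioxidant targets of NRF2, the regulator of the oxidative stress response, were higher at 4 weeks, and a minority at 8 weeks. Of 31, 19 were higher and 1 lower at 4 weeks (background 4.7% and 5.48%), and 7 higher at 8 weeks (4.94%), with medians of 0.76 and 0.36. The interaction was called negative for 6 and positive for 1 (background 1% and 2.05%). Without the 3 muscle arrays 15 were higher at 4 weeks and 4 had a negative interaction. The letters TGACNNNGC of the antioxidant response element, searched as above, were found for 8 of 25 of them with a window (32.0%), for 23 of 123 genes higher only at 4 weeks (18.7%) and for 15.0% of all. The share was 15.7% for genes lower only at 4 weeks, 14.9% for those higher only at 8 weeks, 15.6% for shared higher and 13.9% for shared lower genes. It was 25.0% (4 of 16) for genes lower only at 8 weeks and 33.3% (3 of 9) for those from lower to higher. Srxn1, sulfiredoxin, which restores oxidised peroxiredoxins, read 6.98, 7.34, 8.01, 6.68 and 6.56 in WT against 9.84, 11.36, 10.16, 12.64 and 10.12 in KO at 4 weeks. Its values at 8 weeks were 7.09, 6.68, 6.80, 6.13 and 6.50 in WT and 6.78, 6.90, 7.52, 7.64 and 7.86 in KO, and the groups overlapped. Its interaction was -3.01 (SE 0.57, adjusted p = 0.00578). Gsta2, a glutathione transferase, was shared but smaller at 8 weeks, with differences of 4.20 and 1.30 (interaction -2.90, adjusted p = 0.00267). Ephx1, microsomal epoxide hydrolase, differed by 1.47 and 0.19 (interaction -1.28, adjusted p = 0.0171). Akr1c13, an aldo-keto reductase, was the 1 lower gene, at -2.31 and -0.68 (interaction 1.63, adjusted p = 0.00403).

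Other genes higher only at 4 weeks had different roles. Afp, the fetal serum protein alpha-fetoprotein, read 6.55 ± 0.18 (WT) and 9.09 ± 0.77 (KO) at 4 weeks, and 6.42 ± 0.24 and 6.65 ± 0.69 at 8 weeks (interaction -2.31, adjusted p = 0.00544). Fgf21, a stress and fasting hormone of the liver, was above background in KO at 4 weeks alone, where it was higher by at least 1.44 (interaction -2.20, adjusted p = 0.0205).

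Male-biased genes, too, were among those higher only at 4 weeks. Elovl3, an elongase of very long fatty acids, read 3.46, 5.78, 5.92, 3.93 and 8.26 in WT against 11.73, 11.99, 9.75, 12.10 and 8.67 in KO at 4 weeks. The 8-week livers read 15, 17.53, 17.50, 17.12 and 16.71 in WT and 16.48, 15.54, 15, 15.69 and 13.79 in KO. KO lay above every WT liver at 4 weeks, and at 8 weeks both groups were at much higher levels and overlapped. The interaction of -6.85 (SE 1.12, adjusted p = 0.00193) was the lowest of the called genes ranked for naming. That ranking took genes above background in some group and passed over Gm-number and Rik symbols. The feature of Mup20, a urinary pheromone protein of males, was 14.01 ± 1.44 and 18.28 ± 0.84 at 4 weeks and 19.11 ± 0.13 and 19.18 ± 0.11 at 8 weeks (interaction -4.19, adjusted p = 0.00159). All its values at 8 weeks exceeded 16, more than a 16-bit image can hold on a log2 scale, so a difference there may be hidden. Gstp1 and Gstp2, pi-class glutathione transferases, differed by 2.48 and 2.39 at 4 weeks and by -0.83 and -0.94 at 8 weeks. Their interactions were -3.31 and -3.33 (adjusted p = 0.000152 and 0.000195). Cyp2u1, a fatty acid P450, differed by 1.63 and -0.73 (interaction -2.36, adjusted p = 0.00276).

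**Figure D3:**
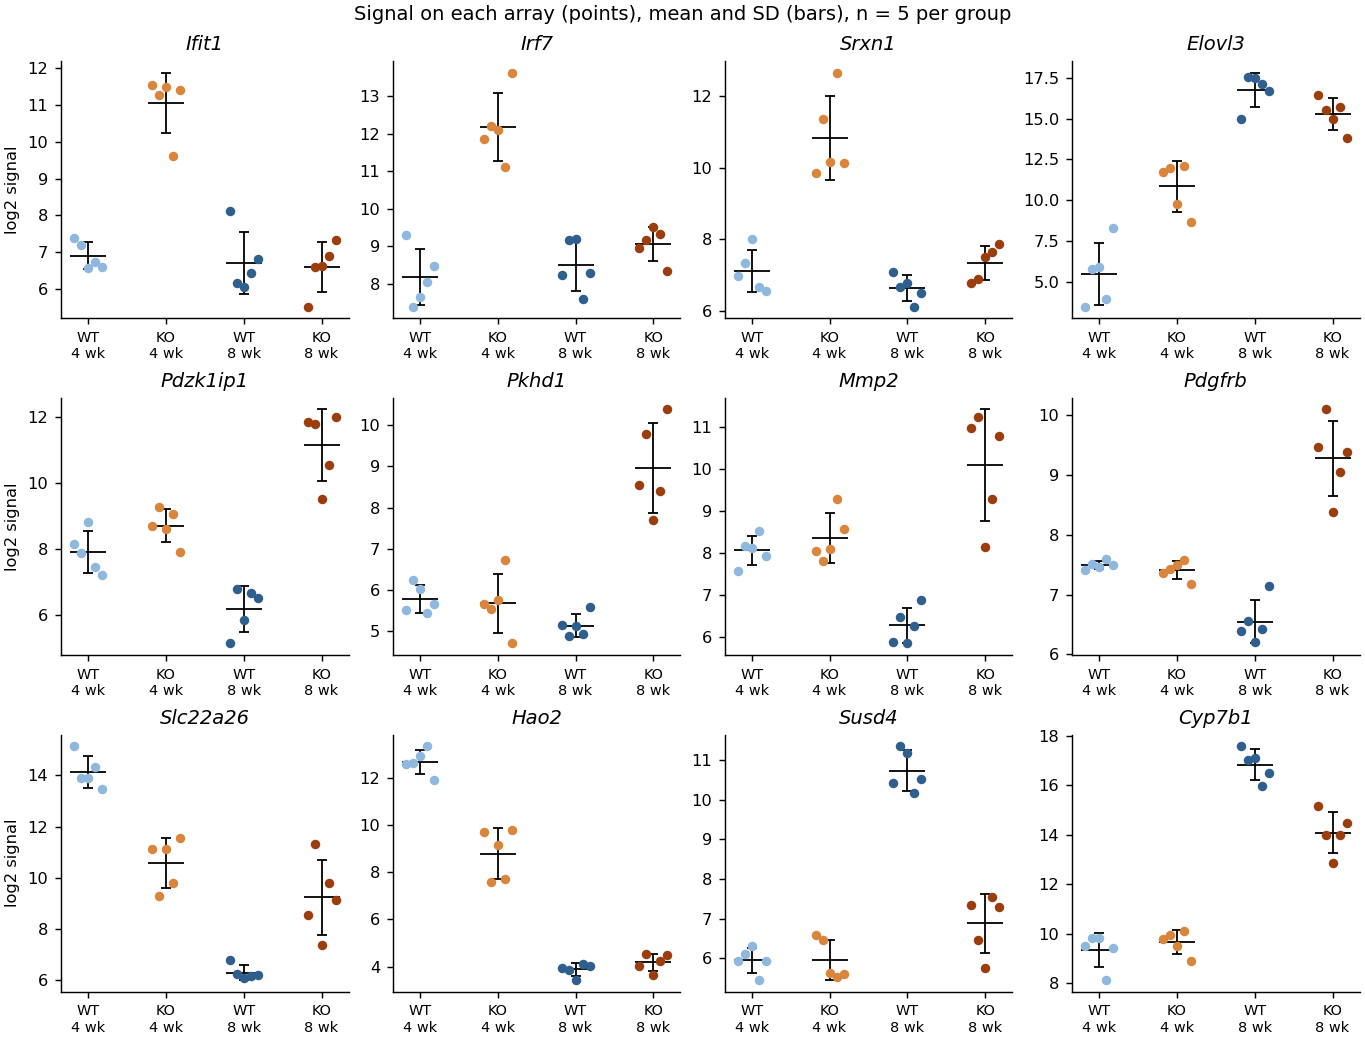
Log2 signal (y axis) of 12 genes in each of the 4 groups (x axis), with 1 point per array, the mean as a horizontal bar and the SD as whiskers (n = 5). Ifit1, Irf7 and Srxn1 stand high in KO at 4 weeks alone, Pdzk1ip1, Pkhd1, Mmp2 and Pdgfrb in KO at 8 weeks alone, and Slc22a26 is lower in KO at 4 weeks and higher at 8 weeks.

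Among genes lower only at 4 weeks the 6 largest interactions, ranked in the same way, belonged to genes of the female-biased list: Hao2, Sult3a1, Cyp2c69, Cyp2c40, Acot3 and Hsd3b1. Hao2, a peroxisomal hydroxyacid oxidase, read 12.59, 12.62, 12.91, 13.34 and 11.90 in WT against 9.71, 7.57, 9.14, 7.73 and 9.80 in KO at 4 weeks. At 8 weeks both groups were not above background, with 3.43 to 4.13 in WT and 3.65 to 4.52 in KO. Its interaction of 4.18 (adjusted p = 0.000148) therefore rests on the difference of -3.88 at 4 weeks. The same held for Sult3a1, a sulfotransferase (-3.03 at 4 weeks, interaction 3.21, adjusted p = 0.0147). Only 5 of the 152 genes of the class were not above background in both groups at 8 weeks, and 10 of the 157 genes higher only at 4 weeks. Cyp2c69, a steroid and drug P450, stayed measurable: it was 16.98 ± 0.43 and 14.19 ± 0.63 at 4 weeks, and 11.68 ± 0.54 and 12.07 ± 0.41 at 8 weeks (interaction 3.19, adjusted p = 0.000236). Cyp2c40 differed by -2.19 and 0.98 (interaction 3.17, adjusted p = 0.00859), and the close paralogs of this family make both assignments uncertain. Hsd3b1, a steroid dehydrogenase, had an interaction of 2.85 (adjusted p = 0.0436) that was lost if any of 16 arrays was dropped (adjusted p up to 0.0787).

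Other genes lower only at 4 weeks serve hepatocyte metabolism and secretion. Acot3 and Acot4, acyl-CoA thioesterases and targets of PPARalpha, had differences of -2.26 and -1.58 at 4 weeks and 0.62 and -0.25 at 8 weeks (interactions 2.87 and 1.33, adjusted p = 0.00578 and 0.0205). Fgfr4, the receptor through which intestinal FGF15 restrains bile acid synthesis, read 7.20, 7.70, 7.55, 6.96 and 7.73 in WT against 5.50, 4.79, 5.30, 4.88 and 6.17 in KO at 4 weeks. The later values were 7.57 ± 0.27 and 7.66 ± 0.61 (interaction 2.19, adjusted p = 0.003). Nr5a2, a nuclear receptor of bile acid genes, differed by -1.08 and -0.27 (interaction 0.81, adjusted p = 0.0261, 0.0528 without WT array 3 at 4 weeks, and 0.0535 with array medians set equal). Ces1f, a carboxylesterase, differed by -2.70 and -0.59 (interaction 2.11, adjusted p = 0.0182). The plasma proteins F11, coagulation factor XI, and Itih1, an inter-alpha-trypsin inhibitor chain, had interactions of 1.20 and 1.04 (adjusted p = 0.00853 and 0.0145). Outside the hepatocyte, Stab2, a scavenger receptor of sinusoidal endothelium, differed by -1.07 and 0.19 (interaction 1.26, adjusted p = 0.0195). Cxcl12, a homing chemokine, differed by -0.70 and 0.38 (interaction 1.08, adjusted p = 0.00676). The imprinted growth gene Mest differed by -1.26 and 0.59 (interaction 1.86, adjusted p = 0.0145).

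Of 19 cholesterol synthesis and uptake genes, 10 were lower at 4 weeks (background 5.48%) and 1 at 8 weeks (background 1.65%), with medians of -0.86 and -0.29. The count at 4 weeks was 6 without WT array 1, 5 without KO array 3 and 6 without KO array 4 of that age. It was 8 without the 3 muscle arrays. Stard4, a sterol transfer protein, was the 1 member with a called interaction (background 3.05%), with differences of -1.98 and -0.72 (interaction 1.27, adjusted p = 0.0181). The synthesis enzymes Pmvk (1.70, adjusted p = 0.172), Msmo1 (0.78, 0.298) and Sqle (0.98, 0.312) had positive interactions that missed the threshold.

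Most genes of bile ducts and of the ductular reaction were higher in KO at 8 weeks, and 10 of 30 were sorted as higher only at that age (background 1.05%). Pdzk1ip1, a small membrane protein of epithelia, read 8.14, 7.89, 8.83, 7.44 and 7.22 in WT against 8.69, 9.26, 8.62, 9.06 and 7.92 in KO at 4 weeks. At 8 weeks it read 5.13, 6.79, 5.83, 6.67 and 6.50 in WT and 11.86, 11.81, 9.52, 10.56 and 12.02 in KO. The groups overlapped at 4 weeks, and at 8 weeks every KO liver lay above every WT liver of either age. Its interaction was 4.16 (SE 0.61, adjusted p = 0.000855). Pkhd1, which encodes fibrocystin of the bile duct cilium, read 5.53, 6.24, 6.03, 5.44 and 5.67 in WT against 5.66, 5.54, 5.75, 6.72 and 4.71 in KO at 4 weeks. It read 5.15, 4.88, 5.13, 4.93 and 5.59 in WT, not above background, and 8.55, 9.78, 7.70, 8.41 and 10.38 in KO at 8 weeks. KO was higher there by at least 3.77 (interaction 3.93, adjusted p = 0.000511). Epcam, the adhesion molecule of cholangiocytes, was higher by at least 3.81 at 8 weeks, against 0.38 at 4 weeks (interaction 3.62, adjusted p = 0.00656). Prom1, a surface protein of progenitors, differed by -0.11 and 3.58 (interaction 3.69, adjusted p = 0.00417), and Bicc1, an RNA-binding protein of ciliated ducts, by 1.11 and 3.85 (interaction 2.73, adjusted p = 0.00654).

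Of 30 ductular genes, 19 were higher at 8 weeks (background 4.94%) and 2 at 4 weeks (4.7%). The count at 4 weeks was 5 without KO array 5 at 8 weeks, 4 with the replicate block, and 1 without WT array 5 or KO array 4 at 4 weeks. The interaction was called positive for 11 (background 2.05%) and negative for none (1%), and the median difference was 0.36 at 4 weeks and 1.52 at 8 weeks. The 11 positive genes were Krt19, Epcam, Cd24a, Pdzk1ip1, Prom1, Bicc1, Pkhd1, Slc5a1, Atp1b1 and Dcdc2a, higher only at 8 weeks, and Fgfr2, lower only at 4 weeks. Without the 3 muscle arrays 9 were positive. The mean of the list per array was 8.13, 8.36, 7.52, 7.39 and 9.36 in KO and 5.96, 6.20, 6.02, 6.15 and 6.52 in WT at 8 weeks. KO array 5 was the highest and KO arrays 3 and 4 the lowest of their group, and all 5 lay above every WT array. The defining bile duct marker Krt7 had means of 5.66 (WT) and 6.01 (KO) at 4 weeks and 5.70 and 8.03 at 8 weeks, where it was called higher (adjusted p = 0.00182), but its interaction missed the threshold (1.98, adjusted p = 0.0901). So did that of Sox9, a transcription factor of bile duct cells (1.13, adjusted p = 0.306), and Cftr had no call.

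Stellate cell genes were in part higher in KO than in WT only at 8 weeks. The median level of the 22 genes listed was 6.87 (WT) and 6.90 (KO) at 4 weeks, and 6.34 and 6.79 at 8 weeks. Pdgfrb, the growth factor receptor of stellate cells, read 7.41, 7.51, 7.47, 7.60 and 7.49 in WT against 7.37, 7.43, 7.50, 7.58 and 7.18 in KO at 4 weeks. In 8-week livers it read 6.39, 6.56, 6.21, 6.42 and 7.15 in WT and 9.47, 10.10, 8.39, 9.06 and 9.39 in KO. The groups overlapped at 4 weeks, within 7.18 to 7.60, and were apart at 8 weeks (interaction 2.82, SE 0.31, adjusted p = 5.41e-05). Tcf21, a transcription factor of quiescent stellate cells, differed by -0.23 and 2.3 (interaction 2.53, adjusted p = 0.000402), and Cygb, cytoglobin, by 0.33 and 2.40 (interaction 2.07, adjusted p = 0.0145). Of 22 stellate and myofibroblast genes, 8 were higher at 8 weeks (background 4.94%) and none at 4 weeks (4.7%; 1 with quantile normalization repeated). The interaction was positive for 5 (background 2.05%; 7 without the muscle arrays). The contractile genes Acta2, Tagln, Cnn1 and Myl9 had no call, and the markers Lrat, Reln, Des and Hand2 had none either. The list means of 8.27, 8.47 and 7.98 on the 3 muscle arrays were the highest at 4 weeks, and what raised them was not tested.

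Most matrix genes were higher in KO than in WT at 8 weeks, and a few at 4 weeks. Mmp2, gelatinase A, read 7.57, 8.16, 8.11, 8.52 and 7.93 in WT against 8.04, 7.80, 8.08, 9.29 and 8.56 in KO at 4 weeks. Its values at 8 weeks were 5.88, 6.48, 5.86, 6.27 and 6.87 in WT and 10.98, 11.24, 8.14, 9.29 and 10.77 in KO, where array 3 was the lowest and still above WT (interaction 3.52, SE 0.62, adjusted p = 0.00312). Lum, the collagen-binding proteoglycan lumican, differed by 0.75 and 3.91 (interaction 3.16, adjusted p = 0.00344), and Sparcl1, a matricellular protein, by 0.95 and 5.06 (interaction 4.11, adjusted p = 0.0103). Timp2, a metalloproteinase inhibitor, had an interaction of 2.71 (adjusted p = 0.00572), and Fam180a one of 3.98 (adjusted p = 0.00187). Of 38 matrix genes, 23 were higher at 8 weeks (background 4.94%) and 4 at 4 weeks (4.7%), with medians of 1.54 and 0.40. Their median level was 7.57 (WT) and 8.03 (KO) at 4 weeks, and 6.51 and 8.09 at 8 weeks. The list level thus differed more between the ages in WT than in KO, which was not tested. The interaction was positive for 9 and negative for 1 (background 2.05% and 1%), and positive for 14 without KO array 3 at 8 weeks. The fibrillar collagen genes Col1a1, Col1a2 and Col3a1 were called higher at 8 weeks and not at 4 weeks, but their interaction was not called. The exception with a negative interaction was Mmp13, collagenase 3. It read 7.29, 8.06, 7.97, 8.12 and 7.56 in KO at 4 weeks, where it was higher by at least 2.78, and 4.05, 6.01, 4.93, 4.92 and 5.85 in KO at 8 weeks. WT was not above background at either age, and the interaction was -2.84 (adjusted p = 0.000974). Mmp13 was sorted as shared higher, but its KO values at 8 weeks lay around the background level of that group (5.02).

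Many macrophage genes were called higher at 4 weeks, at 8 weeks or at both. Of 24 genes of monocyte-derived and lipid-associated macrophages, 12 were higher and 1 lower at 4 weeks (background 4.7% and 5.48%) and 18 higher at 8 weeks (4.94%), with medians of 0.65 and 1.20. Shared higher genes made up 9 of them (background 1.03%), and 4 had a positive and 1 a negative interaction (background 2.05% and 1%). Lyz2, lysozyme of myeloid cells, read 10, 10.25, 9.85, 10.03 and 10.65 in KO at 4 weeks, within the WT range of 9.42 to 10.44 but for array 5. The 8-week livers read 12.47, 12.51, 10.94, 11.91 and 12.04 in KO, all above the WT range of 9.19 to 10.07 (interaction 2.10, SE 0.36, adjusted p = 0.00267). Lpl, lipoprotein lipase, differed by -0.18 and 2.20 (interaction 2.38, adjusted p = 0.0191). Atp6v0d2, a proton pump subunit, differed by -0.97 and 1.82 (interaction 2.78, adjusted p = 0.00565). Both were lower in WT at 8 weeks (8.24 and 6.54) than at 4 weeks (12.79 and 10.40), a difference that is part of the interaction. The resident Kupffer cell markers Clec4f, Vsig4, Timd4, Cd5l and Marco had no called interaction. The T and B cell markers Cd3e, Cd3d, Cd79a and Ms4a1 were not above background in any group. Cd3e was nonetheless called higher in KO at 4 weeks (0.78, adjusted p = 0.0091), without a called interaction. Of the T and NK cell markers, Nkg7 was above background in all groups but WT at 8 weeks. Gzma was above it in KO at 4 weeks alone (5.55, against 4.77 in WT), and neither had a call.

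**Figure D4:**
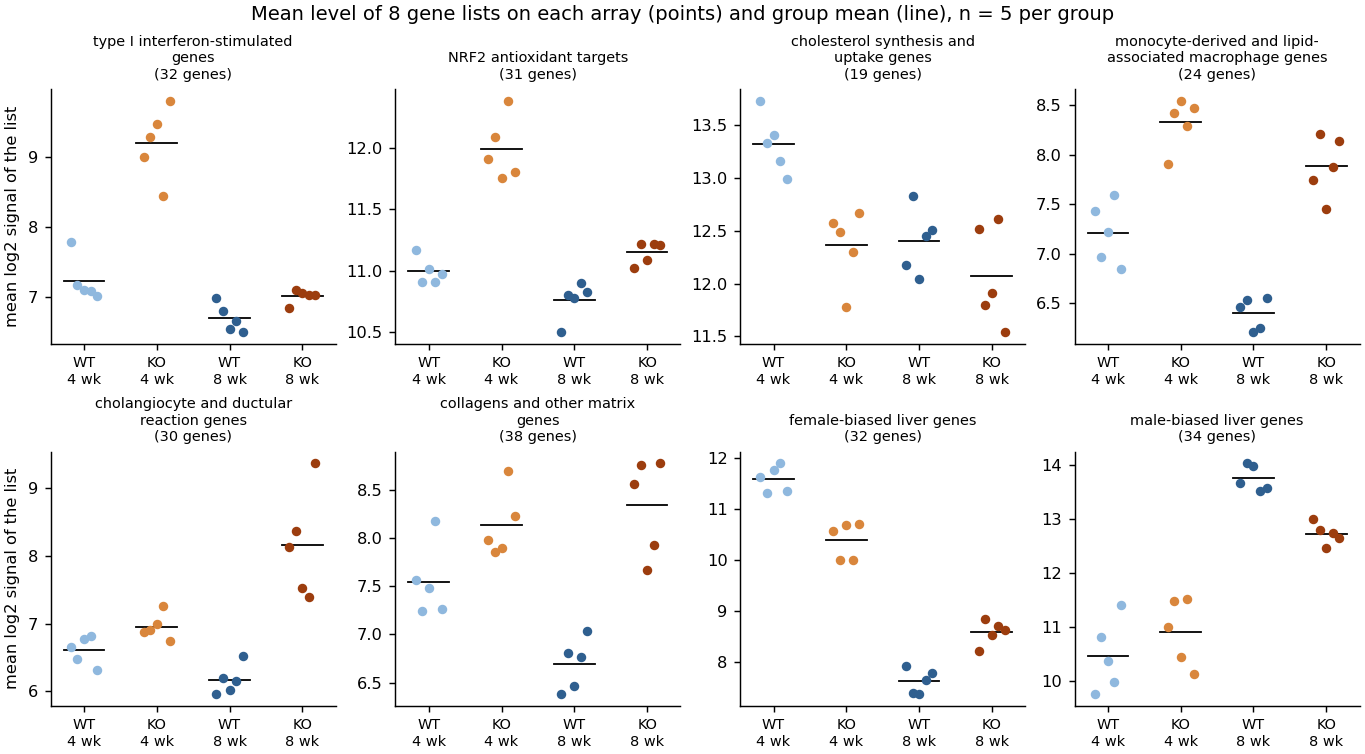
Mean log2 signal of the genes of 8 lists (y axis) on each array (points) in the 4 groups (x axis), with the group mean as a line (n = 5). Interferon genes stand high in KO at 4 weeks alone (8.44 to 9.79), ductular genes in KO at 8 weeks alone (7.39 to 9.36), and macrophage genes in KO at both ages.

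Other genes higher only at 8 weeks had been high in young WT livers. Abcd2, a peroxisomal transporter of very long fatty acids, was 12.93 ± 0.27 (WT) and 11.87 ± 0.74 (KO) at 4 weeks, and 7.01 ± 0.86 and 9.66 ± 0.78 at 8 weeks (interaction 3.71, adjusted p = 0.00113). Cyp4a14, a fatty acid omega-hydroxylase, was 17.21 ± 0.30 and 15.88 ± 0.50 at 4 weeks, and 9.10 ± 1.20 and 11.07 ± 1.47 at 8 weeks (interaction 3.30, adjusted p = 0.0244, and 0.0757 without the 3 muscle arrays). Sytl5 was higher by at least 1.19 at 8 weeks, where WT was not above background (interaction 3.68, adjusted p = 0.00538). Over the 205 genes of the class the median level was 6.92 (WT) and 6.89 (KO) at 4 weeks, and 6.13 and 8.11 at 8 weeks. In 52 of the 205 genes WT at 8 weeks was not above background. The median change per gene from 4 to 8 weeks was -0.76 in WT and 0.82 in KO. WT changed more than KO in 92 of these genes, which were sorted on the same values.

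The 23 genes lower only at 8 weeks had a higher median level in adult than in young WT liver. Susd4, a sushi domain protein that restrains complement, read 5.94, 6.12, 6.31, 5.46 and 5.94 in WT against 6.58, 6.46, 5.63, 5.54 and 5.61 in KO at 4 weeks. The later values were 10.42, 11.35, 11.19, 10.17 and 10.52 in WT and 7.34, 6.46, 5.77, 7.55 and 7.30 in KO. The young groups overlapped, and every adult KO liver lay below every adult WT liver (interaction -3.86, SE 0.44, adjusted p = 6.72e-05). Cyp7b1, the oxysterol hydroxylase of the acidic bile acid pathway, read 9.51, 9.81, 9.84, 8.13 and 9.44 in WT against 9.77, 9.96, 9.52, 10.12 and 8.89 in KO at 4 weeks. At 8 weeks it read 17.58, 17.04, 17.10, 15.97 and 16.50 in WT and 15.15, 13.99, 12.86, 13.98 and 14.48 in KO (interaction -3.05, SE 0.54, adjusted p = 0.00326). Dpy19l3, a C-mannosyltransferase, was 6.43 ± 0.49 and 7.13 ± 0.22 at 4 weeks and 9.06 ± 0.54 and 7.0 ± 0.41 at 8 weeks (interaction -2.76, adjusted p = 0.000236). Slc15a5, of a peptide transporter family, was not above background at 4 weeks and differed by -1.68 at 8 weeks (interaction -1.77, adjusted p = 0.0219). Aox3, an aldehyde oxidase, differed by 0.38 and -0.94 (interaction -1.31, adjusted p = 0.0287), a call lost without any of 5 arrays: WT arrays 2 and 3 and KO arrays 1 and 2 at 8 weeks, and KO array 2 at 4 weeks. Tiam2, a Rac exchange factor, had an interaction of -1.33 (adjusted p = 0.0439) lost without any of 14 arrays. The median level of the class was 6.87 (WT) and 7.13 (KO) at 4 weeks, and 9.26 and 7.31 at 8 weeks. The median change per gene from 4 to 8 weeks was smaller, at 0.58 in WT and -0.24 in KO. The class was sorted on these same values.

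Genes of opposite sign were few. Slc22a26, an organic anion transporter with female-biased expression, had the largest positive interaction of the called genes ranked for naming. It read 15.14, 13.90, 13.89, 14.32 and 13.47 in WT against 11.13, 9.28, 11.13, 9.79 and 11.56 in KO at 4 weeks. In 8-week livers it read 6.80, 6.25, 6.08, 6.18 and 6.20 in WT and 8.55, 11.31, 7.40, 9.82 and 9.14 in KO. KO lay below every WT liver at 4 weeks and above every WT liver at 8 weeks, with differences of -3.57 and 2.94 (interaction 6.51, SE 0.75, adjusted p = 6.72e-05). Its relative Slc22a27 was 12.70 ± 0.54 (WT) and 11.57 ± 0.32 (KO) at 4 weeks. At 8 weeks WT was not above background and KO was higher by at least 1.39 (interaction 3.42, adjusted p = 0.000511). Tcf24, a helix-loop-helix factor, differed by -0.90 at 4 weeks and by at least 1.36 at 8 weeks (interaction 2.94, adjusted p = 2e-05). Nt5e, which encodes the adenosine-producing enzyme CD73, differed by -1.08 and 0.93 (interaction 2.01, adjusted p = 0.00161). Tmem123 (-0.92 and 0.71), Arhgap6 (-1.08 and 0.55) and the collectin Colec11 (-0.56 and 0.88) followed the same order, with interactions of 1.63, 1.63 and 1.44 (adjusted p = 0.00267, 0.000263 and 0.00267). The other 4 of the 11 had interactions of 1.59 (Bche, butyrylcholinesterase), 1.22 (Gulp1), 0.99 (Scamp2) and 1.34 (Zfp532).

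In the other direction, Selenbp2, a selenium-binding protein with male-biased expression, read 10.96, 11.54, 11.81, 12.07 and 12.11 in WT against 12.33, 12.65, 12.69, 13.39 and 12.50 in KO at 4 weeks. Its values at 8 weeks were 15.82, 15.89, 16.04, 14.73 and 15.02 in WT and 13.43, 12.75, 12.12, 12.68 and 13.17 in KO. KO was at nearly the same level at both ages (12.71 and 12.83), above WT at 4 weeks and below it at 8 weeks (interaction -3.68, SE 0.40, adjusted p = 5.41e-05). Ikbkg, the NEMO subunit that activates NF-kB, differed by 0.80 and -0.56 (interaction -1.35, adjusted p = 0.00113). Lrpprc, a stabiliser of mitochondrial mRNA, differed by 0.41 and -0.55 (interaction -0.96, adjusted p = 0.00451). The remaining gene of the 4, Tomm40l, was not above background in any group. The 11 genes that went from lower to higher were 7 without WT array 2 or 3 at 8 weeks or KO array 2 at 4 weeks, and 6 without KO array 2 at 8 weeks. The 4 were 2 without WT array 1 or KO array 4 at 4 weeks or KO array 5 at 8 weeks, 8 without KO array 3 at 8 weeks, and 1 without the 3 muscle arrays.

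As a list, female-biased genes had a median difference that turned from negative to positive, while that of male-biased genes was near 0 at 4 weeks and negative at 8 weeks. Of 32 female-biased genes, 13 were lower and 1 higher at 4 weeks (background 5.48% and 4.7%), and 9 higher and none lower at 8 weeks (4.94% and 1.65%). The interaction was positive for 15 (background 2.05%) and negative for none (1%), and the median difference was -1.09 at 4 weeks and 0.59 at 8 weeks. Their median level was 11.59 (WT) and 10.85 (KO) at 4 weeks, and 6.54 and 8.25 at 8 weeks. Of 34 male-biased genes, 7 were higher and 3 lower at 4 weeks (background 4.7% and 5.48%), and 1 higher and 8 lower at 8 weeks (4.94% and 1.65%; 13 lower with array medians set equal). The 3 lower genes, a share near the background, were 1 without WT array 5 and 5 without WT array 4 at 4 weeks. The interaction was negative for 8 (background 1%) and positive for none (2.05%), with medians of -0.03 and -0.75. Their median level was 10.41 (WT) and 10.77 (KO) at 4 weeks, and 15.14 and 13.70 at 8 weeks. WT livers of the 2 ages thus differed in these genes, a difference that was not tested here, and the same WT arrays set the KO effects at each age.

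**Figure D5:**
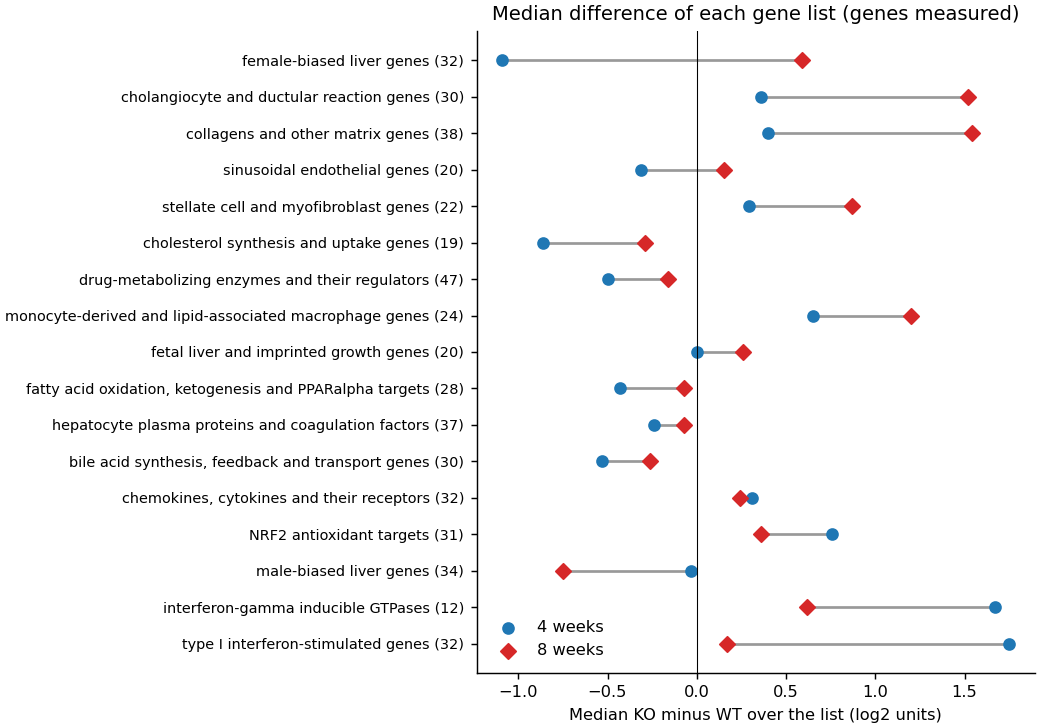
Median KO minus WT difference in log2 units (x axis) of 17 gene lists (y axis, with the number of genes measured), at 4 weeks (blue circles) and 8 weeks (red diamonds). The female-biased list goes from -1.09 to 0.59, the ductular list from 0.36 to 1.52, and the interferon list from 1.75 to 0.17.

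Genes called with the same sign at both ages included macrophage and bile duct genes. Mmp12, the macrophage elastase, read 10.04, 12.46, 11.27, 10.84 and 10.29 in KO at 4 weeks and 7.51, 10.35, 9.06, 11.23 and 9.29 in KO at 8 weeks. WT was not above background at either age, so KO was higher by at least 5.96 and 4.29 (interaction -1.48, adjusted p = 0.331). Cd63, a tetraspanin of endosomes and lysosomes, differed by 3.02 and 3.84 (interaction 0.82, adjusted p = 0.437). The elongase gene Elovl7 was higher by at least 2.28 and 1.26, and the myeloid gene Plac8 by 1.91 at both ages. Tspan8, a tetraspanin of bile duct cells, differed by 2.51 and 5.77, an interaction of 3.26 that missed the threshold (adjusted p = 0.0649). It was called with a replicate block within age (adjusted p = 0.0147). For 281 of the 296 shared genes the interaction was not called, which does not show that the effects were equal: the median standard error of an interaction was 0.25.

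Of the 15 shared genes with a called interaction, 7 were higher at both ages and more so at 8 weeks, 3 were higher and more so at 4 weeks, and 5 were lower at both. Ntrk2, the neurotrophin receptor TrkB, read 5.21, 5.07, 6.64, 6.03 and 5.47 in WT against 7.55, 7.85, 8.67, 8.87 and 7.81 in KO at 4 weeks. The 8-week livers read 4.96, 5.38, 6.61, 5.50 and 5.33 in WT and 10.85, 10.03, 10.47, 10.18 and 10.80 in KO. WT spanned the same range at both ages, KO lay above it at each, and every adult KO liver lay above the young ones (interaction 2.44, SE 0.46, adjusted p = 0.0051). Myof, the membrane repair protein myoferlin, differed by 1.32 and 3.37 (interaction 2.06, adjusted p = 0.0156), and Scara3, a scavenger receptor, by 0.98 and 2.68 (interaction 1.70, adjusted p = 0.033, lost without any of 10 arrays). Cxcl16, a chemokine for T cells, differed by 1.06 and 2.18 (interaction 1.12, adjusted p = 0.0303, lost without any of 9 arrays).

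Shared lower genes included several of metabolism. Fgf1, a growth factor of glucose control, differed by -2.08 and -1.53 (interaction 0.55, adjusted p = 0.534). Retsat, retinol saturase, differed by -1.84 and -1.45, and Ido2, a tryptophan dioxygenase, by -2.35 and -1.34. Plekhb1 (-1.51 and -1.78), Tmem19 (-1.40 and -1.48) and Tlcd2 (-1.70 and -1.38) were also lower at both ages, and none of these 6 had a called interaction. All 5 shared lower genes with a called interaction differed less at 8 weeks than at 4 weeks. Akr1c12, an aldo-keto reductase, differed by -1.85 and -0.64 (interaction 1.21, adjusted p = 0.00518). The sodium channel subunit gene Scnn1a had an interaction of 1.28 (adjusted p = 0.0314, lost without any of 7 arrays), and the transporter gene Slc22a28 one of 1.17 (adjusted p = 0.0315, lost without any of 8). Ugt3a1, a glycosyltransferase, and Adgrf1, an adhesion receptor, had interactions of 1.58 and 1.09 that missed the threshold (adjusted p = 0.0787 and 0.149).

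The 28 genes with an interaction alone had small effects of opposite sign at each age. Wdr18 differed by 0.62 and -0.63 (interaction -1.25, adjusted p = 0.0205), and Rps20, a ribosomal protein gene, by -0.57 and 0.65 (interaction 1.22, adjusted p = 0.0206). Both calls held on leaving out any single array, but Wdr18 missed the threshold without the 3 muscle arrays (adjusted p = 0.0888). The negative genes Zfp809 (-1.20), Farsa (-1.18), Eif2b3 (-1.08), Polb (-0.90) and Mad2l1bp (-0.85) lost the call without any of 3 to 15 arrays. So did the positive genes Ces1g (1.56), Mylk (1.44), Fat4 (1.37) and Rspo3 (1.08) without any of 11 to 13 arrays, and Plxnd1 (1.46) without WT array 3 at 4 weeks.

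In each list of hepatocyte function the interaction was called for a minority of members (background 2.05% positive and 1% negative). The background of calls was 5.48% lower at 4 weeks and 1.65% lower at 8 weeks. Fatty acid oxidation and PPARalpha genes had 9 of 28 lower at 4 weeks (5 without WT array 5 or KO array 2) and 3 positive and 1 negative interactions. Bile acid genes had 6 of 30 lower at 4 weeks (10 with array medians set equal), 4 lower at 8 weeks, and 2 positive and 1 negative interactions (1 positive without WT array 3 at 4 weeks or with array medians set equal). Slc27a5, the bile acid CoA ligase, differed by -0.85 and -0.18 (interaction 0.68, adjusted p = 0.127). Drug-metabolizing genes had 14 of 47 lower at 4 weeks, 4 lower at 8 weeks (1 or 2 without any of 10 arrays, 1 with quantile normalization repeated), and 4 positive and 1 negative interactions (7 positive without WT array 1 at 4 weeks or KO array 3 at 8 weeks, 2 with the replicate block). Plasma protein genes had 7 of 37 lower at 4 weeks (4 without WT array 2 or without the 3 muscle arrays, 3 without KO array 1 or with quantile normalization repeated, and 2 without KO array 4), none called at 8 weeks and 2 positive interactions. Of other lists, fetal liver genes had 4 positive and 1 negative interactions among 20 (background as above). Chemokine and cytokine genes had 2 and 1 among 32, and sinusoidal endothelial genes 2 and 0 among 20. The 2 positive calls became 1 without any of 9 arrays in the chemokine list and without any of 11 in the endothelial list. The endothelial genes Mrc1 and Flt4 had interactions of 0.89 and 0.66 (adjusted p = 0.11 and 0.169), and the plasma protein genes C6 and Itih2 of -2.39 and 0.83 (adjusted p = 0.0521 and 0.0679). C6 was called with array medians set equal (adjusted p = 0.0481), with dim genes left out (0.0429) and without the muscle arrays (0.0278).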

How the data were processed

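Expression was measured on Clariom S Mouse arrays in 20 livers. The deposited values are log2 signals that the authors made with RMA in Affymetrix Expression Console, per the submitters' processing notes. They were used as deposited, ranged from 2.32 to 19.85, and had 254 to 288 features per array above 16. Of 22206 features, 19572 had 1 gene symbol in the platform annotation and 2634 are unnamed here. For 55 symbols with several features the feature brightest on average was kept, leaving 19505 genes. The sources used here give no normalization beyond RMA and no probe positions, and the number of arrays limits the precision.

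A model of the 4 group means (16 residual degrees of freedom) was fitted with limma 3.58.1 in R 4.3.3. The differences KO minus WT at 4 weeks, at 8 weeks, and the difference between them were tested with lmFit and eBayes. Every adjusted p in the text is limma's moderated test with Benjamini-Hochberg adjustment over 19505 genes, two-sided. Genes were named by rule: Ogt, the 10 largest called interactions in each direction, 6 per class and direction, and up to 4 members of each list described. The other genes of the opposite-sign classes and those beside the threshold were added after their values were seen. The classes, the 43 gene lists and the tests were chosen with earlier results of these data known, so list counts are descriptions. Differences given as "at least" were computed against the background level, since a group was not above it. The tests, classes, interactions and list medians used the values as deposited. On simulated data a difference of 1 log2 unit added to KO at 8 weeks was sorted as 8 weeks only for 40% of genes, and one of 2 units for 98%. A difference of 1 unit added to both KO groups was sorted as shared for 78%. The simulated arrays had independent noise, no other differences and 147 called interactions, so these shares do not carry over directly to the livers. Same-numbered arrays of an age did not all deviate together, so no pairing was used. Alternatives were equal array medians, repeated quantile normalization, a trended and robust fit, a filter on dim genes, a stricter threshold, a replicate block, and leaving out arrays.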

Additional observations from a re-analysis of the deposited data

Results flagged for a closer look

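The KO effect differed between the ages for 104 of 129 named genes by limma's test of the difference. Most genes were named for a called interaction or a small interaction p, so this share follows from the naming. Over all genes tested it was 3.05%. Some genes named in the text, such as Krt19, Ifit3, Mx1 and Fgfr2, are not among the 129. For each of the 104 the difference in effect (8 weeks minus 4 weeks, log2 units) is given here by class. Genes higher only at 4 weeks had -6.85 (Elovl3), -4.26 (Ifit1), -4.19 (Mup20), -3.65 (Cmpk2), -3.51 (Rsad2), -3.44 (Irf7), -3.33 (Cxcl10), -3.33 (Gstp2), -3.31 (Gstp1), -3.29 (Saa3), -3.01 (Srxn1), -2.36 (Cyp2u1), -2.31 (Afp), -2.20 (Fgf21), -1.77 (Ddit3), -1.50 (Krt18), -1.28 (Ephx1), -1.07 (Mdm2) and -0.73 (H2-K1). Genes lower only at 4 weeks had 4.18 (Hao2), 3.21 (Sult3a1), 3.19 (Cyp2c69), 3.17 (Cyp2c40), 2.87 (Acot3), 2.85 (Hsd3b1), 2.19 (Fgfr4), 2.11 (Ces1f), 1.86 (Mest), 1.67 (Kyat1), 1.63 (Akr1c13), 1.34 (Ndufa3), 1.33 (Acot4), 1.26 (Stab2), 1.2 (F11), 1.16 (Ogt), 1.08 (Cxcl12), 1.04 (Itih1), 1.01 (Rgn), 0.99 (Znrf3) and 0.81 (Nr5a2). Those higher only at 8 weeks had 4.16 (Pdzk1ip1), 4.11 (Sparcl1), 3.98 (Fam180a), 3.93 (Pkhd1), 3.71 (Abcd2), 3.69 (Prom1), 3.68 (Sytl5), 3.62 (Epcam), 3.52 (Mmp2), 3.30 (Cyp4a14), 3.16 (Lum), 2.82 (Pdgfrb), 2.78 (Atp6v0d2), 2.73 (Bicc1), 2.71 (Timp2), 2.53 (Tcf21), 2.38 (Lpl), 2.36 (Igfbp3), 2.10 (Lyz2), 2.07 (Cygb), 1.34 (Dll4) and 0.67 (Adamts10). Those lower only at 8 weeks had -3.86 (Susd4), -3.05 (Cyp7b1), -2.76 (Dpy19l3), -1.77 (Slc15a5), -1.33 (Tiam2) and -1.31 (Aox3). Where the sign turned from lower to higher the values were 6.51 (Slc22a26), 3.42 (Slc22a27), 2.94 (Tcf24), 2.01 (Nt5e), 1.63 (Tmem123), 1.63 (Arhgap6), 1.59 (Bche), 1.44 (Colec11), 1.34 (Zfp532), 1.22 (Gulp1) and 0.99 (Scamp2), and where it turned from higher to lower they were -3.68 (Selenbp2), -1.35 (Ikbkg) and -0.96 (Lrpprc). Shared higher genes had -2.90 (Gsta2), -2.84 (Mmp13), 2.44 (Ntrk2), 2.06 (Myof), 1.70 (Scara3) and 1.12 (Cxcl16), and shared lower genes 1.28 (Scnn1a), 1.27 (Stard4), 1.21 (Akr1c12) and 1.17 (Slc22a28). With no call at either age, the values were 1.56 (Ces1g), 1.46 (Plxnd1), 1.44 (Mylk), 1.37 (Fat4), 1.22 (Rps20) and 1.08 (Rspo3), and -1.25 (Wdr18), -1.20 (Zfp809), -1.18 (Farsa), -1.08 (Eif2b3), -0.90 (Polb) and -0.85 (Mad2l1bp).

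In 24 of the 516 combinations of a named gene (129 genes) and a group, 1 array stood far from the other 4 by Dixon's criterion, where chance gives about 1 in 20. KO array 4 at 4 weeks, which carries muscle transcripts, was highest for Fam180a (8.56), Timp2 (9.78), Igfbp3 (10.06) and Stab2 (7.53) and lowest for Ifit1 (9.61). WT array 1 at 4 weeks was highest for Gbp3 (10.15), Gbp4 (12.35) and Saa3 (8.81). WT array 1 at 8 weeks was highest for Slc22a26 (6.80), F11 (12.41) and Saa3 (10.78) and lowest for Fgfr4 (7.09) and Stab2 (6.64). Single genes stood apart on other arrays: Sult3a1 on KO array 2 at 4 weeks (5.72), Cyp7b1 on WT array 4 at 4 weeks (8.13), Tmem123 on KO array 3 at 8 weeks (12.22), Tmem19 on WT array 5 at 4 weeks (11.82), Pmvk on KO array 3 at 4 weeks (8.88), Msmo1 on WT array 3 at 8 weeks (10.45), Itih1 on KO array 5 at 4 weeks (15.20), Bche on WT array 2 at 8 weeks (10.37), Zfp532 on WT array 4 at 8 weeks (5.17), Ddit3 on KO array 5 at 8 weeks (6.64) and Kyat1 on WT array 2 at 4 weeks (14.80).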

How the results depend on the processing

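Of the 130 genes examined singly, no called interaction changed direction under the alternatives run. The uncalled interactions of Plac8 (-0.29 to 0.30), Elovl7 (-0.58 to 0.03) and Tmem19 (-0.26 to 0.03, and 0.17 without the 3 muscle arrays) changed sign when single arrays were left out. The balance of higher to lower calls at 8 weeks turned with array medians set equal, from 963 and 321 to 801 and 856, and that of shared genes from 200 and 96 to 161 and 220. At 4 weeks it turned from 917 and 1068 to 825 and 799 without KO array 1 of that age. Genes of 4 weeks only, 157 higher and 152 lower, were 118 and 161 without the 3 muscle arrays, 115 and 126 with the replicate block, 109 and 127 without WT array 4 and 150 and 171 without KO array 5 of that age. With array medians set equal 42 genes were lower only at 8 weeks against 23. Without the 3 arrays with muscle transcripts, 14 genes were lower only at 8 weeks and 1 went from higher to lower. With a replicate block within age the last 2 counts were 15 and 2, and 382 positive and 151 negative interactions were called, 440 of them among the 595. With that block Tspan8 gained a call, while Tiam2, Aox3, Polb, Mad2l1bp, Ces1g, Rspo3, Scnn1a, Ces1f, Adamts10, Ddit3 and H2-K1 lost theirs. Same-numbered arrays correlated in their deviations at -0.15 to 0.48 at 4 weeks and -0.18 to 0.14 at 8 weeks, and not every array matched its own number best. At an adjusted p below 0.01 there were 93 positive and 47 negative interactions, 463 higher and 520 lower genes at 4 weeks, 576 and 92 at 8 weeks, 88 and 19 shared, 41 and 35 only at 4 weeks, 52 and 5 only at 8 weeks, and 2 and 0 of opposite sign (limma; with the 0.05 threshold 11 and 4). Repeated quantile normalization, the trended and robust fit, leaving out the dimmest 25% of genes, and a stricter rule of absence at the other age kept every such count within 1.5 times.

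Leaving out each array in turn gave 247 to 528 positive and 138 to 227 negative interactions, and 371 to 549 of the 595 remained. Calls at 8 weeks ranged from 199 to 340 for lower genes. The classes ranged from 54 to 110 for shared lower, 93 to 171 for lower only at 4 weeks, 124 to 309 for higher and 14 to 35 for lower only at 8 weeks, and 6 to 15 and 2 to 8 for lower to higher and higher to lower. Which property of an array moves a count was not tested. Among named genes, 183 of 2600 combinations of gene and left-out array lost a call and 16 gained one. Without the muscle arrays Hsd3b1, Tiam2, Aox3, Zfp809, Farsa, Eif2b3, Polb, Mad2l1bp, Ces1g, Mylk, Fat4, Scara3, Ddit3, Mdm2 and H2-K1 also lost theirs. Signals near background and above 16 limit what a difference can show.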

Other observations

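Other gene lists add to the picture of either age. Stress genes at 4 weeks included Ddit3, the stress factor CHOP, with a difference of 1.79 that was 0.03 at 8 weeks (interaction -1.77, adjusted p = 0.0341, lost without any of 7 arrays). Mdm2, the feedback target of p53, differed by 0.88 and -0.18 (interaction -1.07, adjusted p = 0.0128). The acute phase gene Saa3 differed by 2.46 at 4 weeks and -0.83 at 8 weeks (interaction -3.29, adjusted p = 0.00441), while 1 of the 22 acute phase genes was higher and 2 lower at 4 weeks (background 4.7% and 5.48%). Krt18, the main keratin of hepatocytes, differed by 2.10 and 0.60 (interaction -1.50, adjusted p = 0.0208). In contrast, the bile duct keratin Krt19 differed by -0.25 and 1.95 (interaction 2.21, adjusted p = 0.0481). For Krt19, WT at 8 weeks was not above background, and the call was not followed singly with arrays left out. H2-K1, a class I antigen-presenting molecule, differed by 0.75 and 0.02 (interaction -0.73, adjusted p = 0.0219).

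On the positive side, Igfbp3, a carrier of insulin-like growth factors, differed by -0.64 and 1.72 (interaction 2.36, adjusted p = 0.00853), and the Notch ligand Dll4 by -0.45 and 0.89 (interaction 1.34, adjusted p = 0.0215). Kyat1, of kynurenine metabolism, differed by -1.91 and -0.24 (interaction 1.67, adjusted p = 0.0154). The complex I gene Ndufa3 differed by -1.60 and -0.26 (interaction 1.34, adjusted p = 0.00187), while 6 of 31 complex I genes were lower at 4 weeks (background 5.48%) and 1 at 8 weeks (1.65%). Pericentral hepatocyte genes had 7 of 19 lower at 4 weeks (background 5.48%) and 2 positive interactions, Znrf3 (0.99) and Rgn (1.01), and periportal genes 5 of 22 lower and none called in the interaction. These genes were singled out after their values were seen.

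Several lists held no called interaction by limma: resident Kupffer cell genes (14 measured), neutrophil (11), erythroid (7), cell cycle (32), gluconeogenesis (19), metallothionein and iron (24), clock (18), muscle (20) and hepatocyte marker genes (10). These lists are small and the interaction was called for 3.05% of all genes, so the absence of calls is near the background. Of the 32 cell cycle genes 1 was higher at 4 weeks and 2 at 8 weeks, near the background of 4.7% and 4.94%. Antigen presentation and stress genes had 2 negative interactions each, among 17 and 26 measured (background 1%). T, NK and B cell, keratin, p53, cell death, lipogenesis, acute phase, hepatocyte transcription factor, amino acid, growth hormone axis, O-GlcNAc cycling, Notch and YAP, and neurotrophin genes had at most 1 in each direction. Such lists held 7 to 31 measured genes (background 2.05% positive and 1% negative), so 1 call is no result about a list.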
